A study of Mus musculus with 4 samples.

Results

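The miR-15 and miR-16 family was examined in mouse aorta in 6 entries: miR-15a-5p, miR-15b-5p, miR-16-5p, miR-195a-5p, miR-497a-5p and miR-195a-3p. They were taken by name, and all 6 were found among the 1152 entries listed for each library. The first 5 carry the shared seed of the family, and miR-195a-3p is the opposite arm of the miR-195a hairpin. Aortic small RNA (18 to 30 nucleotides) was sequenced from wild type C57BL/6 mice labelled 12-week, in 2 libraries labelled Sham and 2 labelled CKD (chronic kidney disease), and 4 samples were pooled for each library. In the labelled model, both poles of the left kidney were taken off, the right kidney was removed 1 week later, and a 2% phosphate diet with 0.45% NaCl in the drinking water followed for 4 weeks. The labels carry this text on every sample, Sham included, and do not say which steps the Sham mice had. Nothing in the labels says how the pools of a group differ, so the p-values reflect only the spread over these 4 libraries, which may be technical.

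A microRNA (miRNA) guides the Argonaute protein to messenger RNAs that pair with its seed, which lowers their translation and stability. The miR-15 and miR-16 family is known as a brake on the cell cycle: its targets include the cyclins D1 and E1, the kinases Cdk6 and Chek1, and the survival factor Bcl2. The miR-15a and miR-16-1 hairpins lie in Dleu2, a locus often lost in human chronic lymphocytic leukaemia, and the miR-195a and miR-497a hairpins form a separate cluster that is known to restrain division of heart muscle cells after birth. In vascular smooth muscle, miR-195 is known as an inhibitor of proliferation. miR-16-5p is also abundant in blood cells.

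The mature sequences show which members can share targets and how far they can be told apart. They are the RefSeq sequences for GRCm38.p6, printed 5′ to 3′ with the seed (bases 2 to 8) in capitals.
miR-16-5p: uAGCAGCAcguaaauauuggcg
miR-195a-5p: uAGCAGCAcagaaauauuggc
miR-15a-5p: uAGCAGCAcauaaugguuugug
miR-15b-5p: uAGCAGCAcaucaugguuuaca
miR-497a-5p: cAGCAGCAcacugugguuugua
miR-195a-3p: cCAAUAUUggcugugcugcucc
The 5 members from 5p arms hold the seed AGCAGCA, which 10 of the 1679 mature miRNA names in the RefSeq table hold. The seed of miR-195a-3p, CAAUAUU, is held by no other name in that table.

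Of the pairs of 5p members compared over their whole length, miR-16-5p and miR-195a-5p are the closest. miR-16-5p and miR-195a-5p differ at 2 of 21 compared bases, and miR-16-5p has 1 base more. Counted from 1 at the 5′ end of miR-16-5p, the substitutions are G10A and U11G, shown here in capitals with the extra base.
miR-16-5p: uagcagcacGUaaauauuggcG
miR-195a-5p: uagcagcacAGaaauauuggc
miR-15a-5p and miR-15b-5p differ at 4 of 22 bases, the first of them A12C counted from the 5′ end of miR-15a-5p. miR-15a-5p and miR-497a-5p, which come from different clusters, differ at 5 of 22. Cluster mates are less alike: miR-16-5p and miR-15a-5p differ at 6 of 22 bases, and miR-195a-5p and miR-497a-5p at 9 of 21. How reads matching more than 1 of these sequences were assigned is not stated in the labels.

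The members are made from 3 clusters of hairpins, placed here in GRCm38. Mir15a (chr14:61632027-61632110, minus strand) and Mir16-1 (chr14:61631880-61631972, minus strand) lie 54 bases apart inside Dleu2, a long noncoding RNA gene. Mir15a overlaps no Dleu2 exon and is intronic, and Mir16-1 overlaps an annotated Dleu2 exon. Mir15b (chr3:69009772-69009835, plus strand) and Mir16-2 (chr3:69009902-69009996, plus strand) lie 66 bases apart in an intron of Smc4, a condensin subunit needed for mitosis. Mir497 (chr11:70234717-70234800, plus strand) and Mir195a (chr11:70235042-70235135, plus strand) lie 241 bases apart, in no annotated gene on their strand, with Mir497b annotated opposite Mir497. Mir16-1 and Mir16-2 give the same mature miR-16-5p, so its reads cannot be assigned to either hairpin, whereas their 3p arms differ.

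Depth was even across the libraries, and the composition of the reads was not. The deposited values are counts per 1000000 (CPM), from which whole reads could be recovered, with totals between 16658810 and 17532748 reads a library. miR-143-3p, the main smooth muscle miRNA, held 79.8% and 72.5% of reads in Sham against 41.1% and 40.8% in CKD, so with a fixed total most other entries were higher in CKD on the deposited scale. The median log2 difference (CKD minus Sham) of the 479 entries with a mean of at least 1 CPM was 1.34 on that scale. Each member is therefore also given after TMM scaling, a trimmed-mean method that removes the shift shared by most entries and assumes that most were unchanged. The 4 contractile smooth muscle miRNAs fixed as markers of the tissue were present in every library, at 774989 to 833695 CPM together in Sham against 485612 to 488708 in CKD, most of it miR-143-3p. As deposited, limma called miR-143-3p lower, miR-145a-5p and miR-145a-3p higher, and miR-143-5p not. After TMM scaling limma called miR-143-3p and miR-145a-5p lower, edgeR called miR-143-3p alone and DESeq2 called all 4 in either direction. Of all 479 entries limma called 37, edgeR 31 and DESeq2 79. In these bulk pools, fewer cells of a type and less RNA per cell cannot be told apart.

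miR-16-5p was the most abundant member by a wide margin, and ranked at place 43 of the 1152 entries by mean CPM. It had 609 and 981 CPM in Sham against 2359 and 2527 CPM in CKD. miR-195a-5p followed with 241 and 366 CPM in Sham against 832 and 801 CPM in CKD. miR-497a-5p, its cluster mate, had 140 and 203 CPM in Sham against 516 and 419 CPM in CKD. Within each group the lowest value of miR-16-5p lay above the highest of miR-195a-5p, and the lowest of miR-195a-5p above the highest of miR-497a-5p.

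The miR-15 arms were scarcer, and their order differed between libraries. miR-15a-5p had 42.6 and 75.5 CPM in Sham against 177 and 162 CPM in CKD. miR-15b-5p had 24.8 and 60.2 CPM in Sham against 149 and 313 CPM in CKD. miR-15a-5p was the higher of the pair in 3 of 4 libraries and miR-15b-5p in CKD 2, and their levels did not differ beyond the spread of the libraries in either group. miR-195a-3p was the least abundant, with 6.56 and 9.48 CPM in Sham against 16.5 and 12.1 CPM in CKD, from 115 to 290 reads a library. Adaptor ligation captures some small RNAs better than others, so the order of levels holds for these libraries and need not be that of the molecules.

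**Figure D1:**
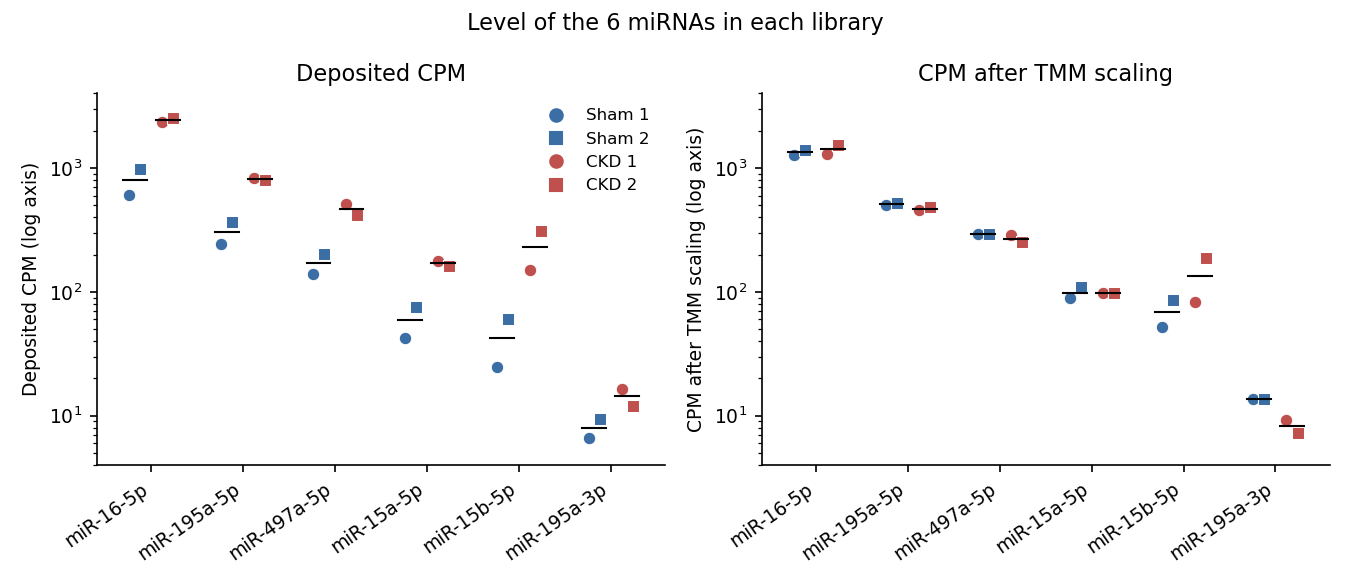
CPM of each member as deposited (left) and after TMM scaling (right), on log axes, with a point per library (circles for replicate 1, squares for replicate 2) and a bar at the mean of each group. On the left every CKD point lies above both Sham points of its miRNA, as for 91.2% of tested entries. On the right miR-195a-5p, miR-497a-5p and miR-195a-3p are lower in both CKD libraries, as for 31.5% of tested entries, while miR-16-5p, miR-15a-5p and miR-15b-5p overlap.

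On the deposited scale all 6 members rose in CKD by limma with Benjamini-Hochberg adjustment over 479 entries, at a threshold of 0.05. Of all tested entries 82.9% were called higher on this scale, so the count is near the background. Both CKD libraries lay above both Sham libraries for each of the 6, as for 91.2% of tested entries. The largest difference was that of miR-15b-5p, 2.45 (SE 0.51, limma adjusted p = 0.002), above 97.3% of tested entries, and the smallest that of miR-195a-3p, 0.77 (SE 0.32, limma adjusted p = 0.042), above 14.0%. The other members lay between 1.45 for miR-195a-5p and 1.66 for miR-16-5p, all above the median of 1.34. Without CKD 1 or without CKD 2 only 1 CKD library is left. The differences then were 2.98 and 1.92 for miR-15b-5p, and 0.55 and 0.98 for miR-195a-3p. With library totals taken without miR-143-3p none of the 6 was called, where 28 of all 479 entries were.

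Relative to the shared shift, none of the 6 members passed the adjusted threshold. Of all tested entries 1.88% were called higher and 5.85% lower after TMM scaling. The median of the members was -0.06, beside -0.00083 for all 479. At an unadjusted p under 0.05 there was 1 of the 6, miR-195a-3p, and edgeR and DESeq2 on the recovered reads called 0 of the 6. Groups did not overlap for 3 members, all lower in CKD (miR-195a-5p, miR-497a-5p and miR-195a-3p), while 31.5% of tested entries lay lower in this way and 28.0% higher.

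**Figure D2:**
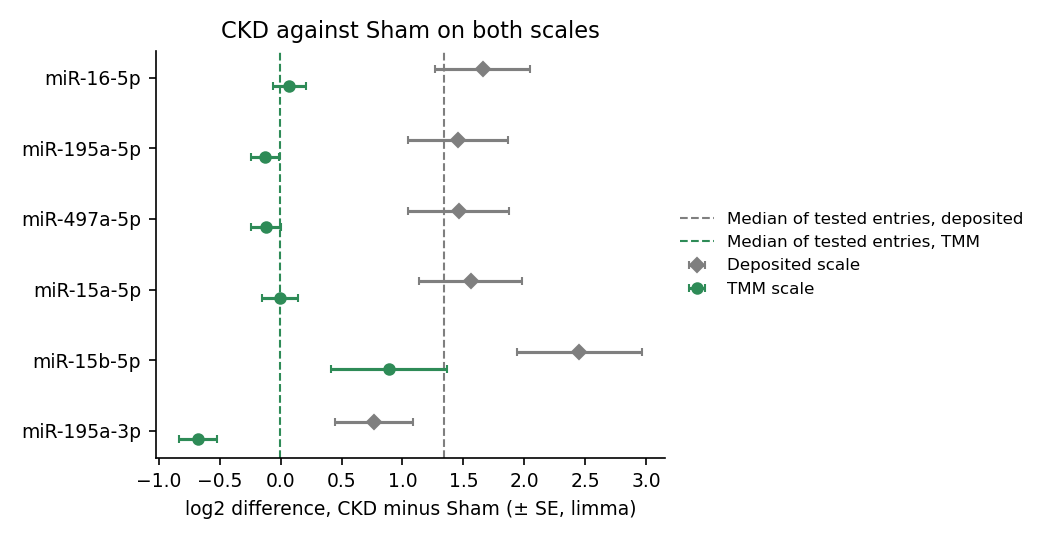
Difference between CKD and Sham in log2(CPM + 1) for each member, on the deposited scale (grey diamonds) and after TMM scaling (green circles), with the limma standard error as bars and dashed lines at the median of all 479 tested entries. The members stand at both ends of the family as miR-15b-5p (2.45 and 0.89) and miR-195a-3p (0.77 and -0.68), with the other 4 near the dashed lines.

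From the Dleu2 cluster, miR-15a-5p differed least between groups after scaling. Its TMM-scaled CPM were 89.1 and 108 in Sham against 97.8 and 97.9 in CKD, so both CKD values lay between the Sham values. The log2 difference was -0.01 (SE 0.15, limma adjusted p = 0.98). miR-16-5p, made from this cluster and from the Smc4 cluster, had 1273 and 1410.2 in Sham against 1304 and 1522 in CKD on this scale, and the groups overlapped. Its log2 difference was 0.07 (SE 0.14, limma adjusted p = 0.75), with a sign that changed between scalings.

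From the Smc4 cluster, miR-15b-5p had the largest difference of the members, with CKD 2 apart from the other libraries. Its TMM-scaled CPM were 51.7 and 86.5 in Sham against 82.6 and 188 in CKD. CKD 1 lay within the range of the Sham libraries and CKD 2 far above it. The log2 difference was 0.89 (SE 0.48, limma adjusted p = 0.315), above 92.9% of tested entries, and it was 0.30 without CKD 2 and 1.48 without CKD 1.

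From the chromosome 11 cluster, both 5p members were slightly lower in CKD after scaling. miR-195a-5p had 505 and 526 TMM-scaled CPM in Sham against 460 and 482 in CKD, a log2 difference of -0.13 (SE 0.11, adjusted p = 0.48 by limma). miR-497a-5p had 292 in each Sham library and 286 and 252 in CKD, a difference of -0.12 (SE 0.13, limma adjusted p = 0.57). For each, the nearest Sham and CKD libraries were closer to each other than the CKD libraries were among themselves, and neither difference passed the test.

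miR-195a-3p was the member that lay lowest relative to the shift. Its TMM-scaled CPM were 13.7 and 13.6 in Sham against 9.14 and 7.27 in CKD, so both CKD libraries lay below both Sham libraries. The log2 difference was -0.68 (SE 0.16, unadjusted p = 0.0098, limma adjusted p = 0.082), with 10.4% of tested entries further down. With only entries of a mean of at least 10 CPM tested, its adjusted p by limma was 0.045. Its direction depends on the scale, since the same libraries gave a rise of 0.77 on the deposited one.

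Within the family, where the scale has no part, miR-16-5p made up more than all other members together in every library. Its share of the reads of the 6 members was 57.6% ± 0.442 (SD, n = 2) in Sham against 59.0% ± 1.01 (SD, n = 2) in CKD. The share of miR-195a-5p was 22.1% ± 0.766 in Sham against 19.7% ± 1.14 in CKD (SD, n = 2), and that of miR-497a-5p 12.5% ± 0.815 and 11.3% ± 2.02 (SD, n = 2). miR-15a-5p held 4.23% ± 0.315 and 4.10% ± 0.376 (SD, n = 2), and miR-195a-3p 0.588% ± 0.0407 and 0.347% ± 0.0873 (SD, n = 2). The shares of miR-16-5p, miR-195a-5p, miR-195a-3p and miR-15b-5p did not overlap between groups, those of miR-15a-5p and miR-497a-5p did. Such a lack of overlap is common here: after TMM scaling 28.0% of tested entries lay higher in both CKD libraries and 31.5% lower. The shares are parts of 1 whole, so they are not separate results.

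The share of miR-15b-5p varied most, and CKD 2 stood apart from the other libraries. It was 2.33% (Wilson 95% interval 2.12% to 2.55%) and 3.55% (3.34% to 3.77%) in Sham against 3.69% (3.55% to 3.83%) and 7.39% (7.20% to 7.58%) in CKD. The intervals of Sham 2 and CKD 1 overlap, and those of the other neighbouring libraries do not. The mean difference was 2.60 percentage points, 0.752 without CKD 2. An exact permutation test of 2 libraries against 2 (two-sided) cannot go below p = 0.333, the value reached for the 4 members that did not overlap (0.5 adjusted over 6 shares). Intervals cover the counting error of reads only and leave out the spread between libraries. Amplified reads need not be independent molecules, so the intervals may be too narrow.

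**Figure D3:**
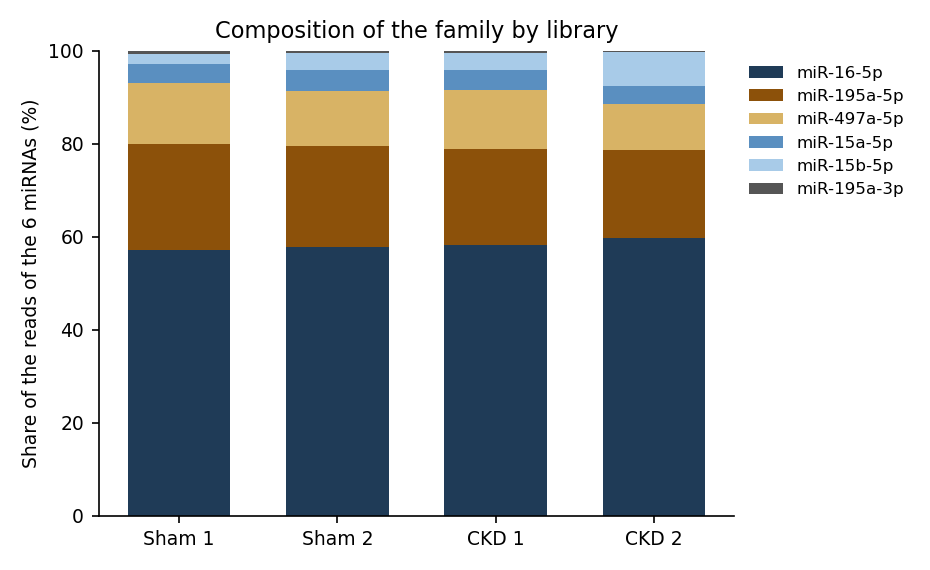
Share of each member in the reads of the 6 members, in percent, with a stacked bar per library. miR-16-5p fills 57.2% to 59.7% of each bar, and the segment of miR-15b-5p is widest in CKD 2, at 7.39%.

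The summed level of the family was higher in CKD as deposited and overlapped between groups after scaling. The 6 members together had 1064 and 1696 CPM in Sham against 4050 and 4234 CPM in CKD, which is 3.00-fold by group means. After TMM scaling the sums were 2224 and 2437 in Sham against 2239 and 2550 in CKD, so the groups overlapped. As a share of the reads other than miR-143-3p, the family held 0.527% and 0.617% in Sham against 0.688% and 0.715% in CKD.

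Ratios between members within a library do not depend on scaling either, and 11 were computed. The ratio of the cluster mates miR-195a-5p and miR-497a-5p was close in all libraries, at 1.73 and 1.80 in Sham against 1.61 and 1.91 in CKD, a log2 difference of -0.01 (exact permutation p = 1.0, two-sided). The Sham values lay between the CKD values. The ratio of miR-15a-5p to miR-16-5p was 0.0700 and 0.0769 in Sham against 0.0750 and 0.0643 in CKD, and the groups overlapped too, with a log2 difference of -0.08 (exact permutation p = 0.667, two-sided).

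Ratios with miR-15b-5p did not overlap between groups, with CKD 1 close to Sham 2. miR-15b-5p to miR-16-5p was 0.0407 and 0.0614 in Sham against 0.0634 and 0.124 in CKD. miR-15b-5p to miR-15a-5p, the 5p arms of 1 hairpin each in Smc4 and Dleu2, was 0.581 and 0.798 in Sham against 0.845 and 1.93 in CKD. The Wilson 95% counting intervals of Sham 2 (0.734 to 0.866) and CKD 1 (0.802 to 0.890) overlap, and only CKD 2 (1.84 to 2.02) lies above 1. The log2 differences were 0.83 and 0.91 (exact permutation p = 0.333, two-sided, 0.458 adjusted over 11), and 0.34 and 0.31 without CKD 2. The 3p arms of the miR-15 hairpins went the other way, with TMM-scaled differences of 0.57 for miR-15a-3p and 0.06 for miR-15b-3p. Those of the miR-16 hairpins were -0.35 for miR-16-1-3p (Dleu2) and 0.45 for miR-16-2-3p (Smc4). The 3p arms of the miR-16 hairpins thus went the way of the 5p ratio, and those of the miR-15 hairpins did not. None of these 3p arms was called after scaling. Whether the 5p ratio stands for the clusters as wholes was not tested.

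Between clusters, miR-195a-5p was lower against miR-16-5p in both CKD libraries. miR-195a-5p to miR-16-5p was 0.396 and 0.373 in Sham against 0.353 and 0.317 in CKD, a log2 difference of -0.20. The sum of miR-195a-5p and miR-497a-5p over the sum of miR-15a-5p, miR-15b-5p and miR-16-5p was 0.563 and 0.510 in Sham against 0.502 and 0.406 in CKD, a difference of -0.25. For both ratios the groups did not overlap (exact permutation p = 0.333, two-sided, 0.458 adjusted over 11). The differences were -0.13 and -0.09 without CKD 2.

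The miR-195a hairpin gave more 5p reads for each 3p read in both CKD libraries. Both arms are in capitals in the hairpin, with the 5p arm first.
Mir195a: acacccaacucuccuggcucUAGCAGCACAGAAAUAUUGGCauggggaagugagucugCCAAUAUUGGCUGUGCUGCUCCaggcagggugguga
There were 36.8 and 38.6 reads of the 5p arm for each read of the 3p arm in Sham against 50.3 and 66.4 in CKD. The counting intervals were 30.6 to 44.3 and 33.0 to 45.2 in Sham against 44.8 to 56.5 and 57.8 to 76.3 in CKD. The groups did not overlap and the log2 difference was 0.61 (exact permutation p = 0.333, two-sided, 0.458 adjusted over 11), although the intervals of Sham 2 and CKD 1 overlap. Leaving out a library in turn gave 0.41 to 0.82.

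Other hairpins of the family gave arm ratios that went both ways. The 5p to 3p ratio of miR-15a was 35.5 and 33.5 in Sham against 19.0 and 22.6 in CKD, so here the 3p arm had a larger part in CKD than in Sham, with a log2 difference of -0.74. The 3p arm had only 21 and 38 reads in Sham, and the counting intervals of both Sham libraries (23.1 to 54.7 and 24.3 to 46.2) overlap that of CKD 2 (18.8 to 27.1). That of miR-15b was 8.85 and 8.26 in Sham against 10.6 and 21.5 in CKD, a difference of 0.82, or 0.31 without CKD 2. Both arms of miR-15b are in capitals in the hairpin.
Mir15b: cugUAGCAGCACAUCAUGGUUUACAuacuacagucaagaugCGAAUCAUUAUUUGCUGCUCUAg
miR-15b-3p had 2.80 and 7.29 CPM in Sham against 14.1 and 14.5 CPM in CKD, so the excess of miR-15b-5p in CKD 2 over CKD 1 was not seen in the other arm of its hairpin. For both hairpins the groups did not overlap (exact permutation p = 0.333, two-sided, 0.458 adjusted over 11). The miR-497a ratio rested on 3 to 14 reads of the 3p arm a library, too few to compare.

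The 3p arms tell the miR-16 hairpins apart, at low depth. miR-16-1-3p had 36 and 34 reads in Sham against 90 and 64 reads in CKD, and miR-16-2-3p had 27 and 30 reads in Sham against 115 and 140 reads in CKD. Their ratio was 1.33 and 1.13 in Sham against 0.782 and 0.457 in CKD, so the arm from the Smc4 cluster was the more frequent in both CKD libraries and the less frequent in both Sham libraries. The log2 difference was -1.04 (exact permutation p = 0.333, two-sided, 0.458 adjusted over 11), and -0.65 without CKD 2. The counting intervals of the Sham libraries reached from 0.697 to 2.19 and overlap that of CKD 1 (0.594 to 1.03). Each of these intervals includes 1. Only in CKD 2, where the interval ended at 0.614, was the order of the arms beyond counting error.

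**Figure D4:**
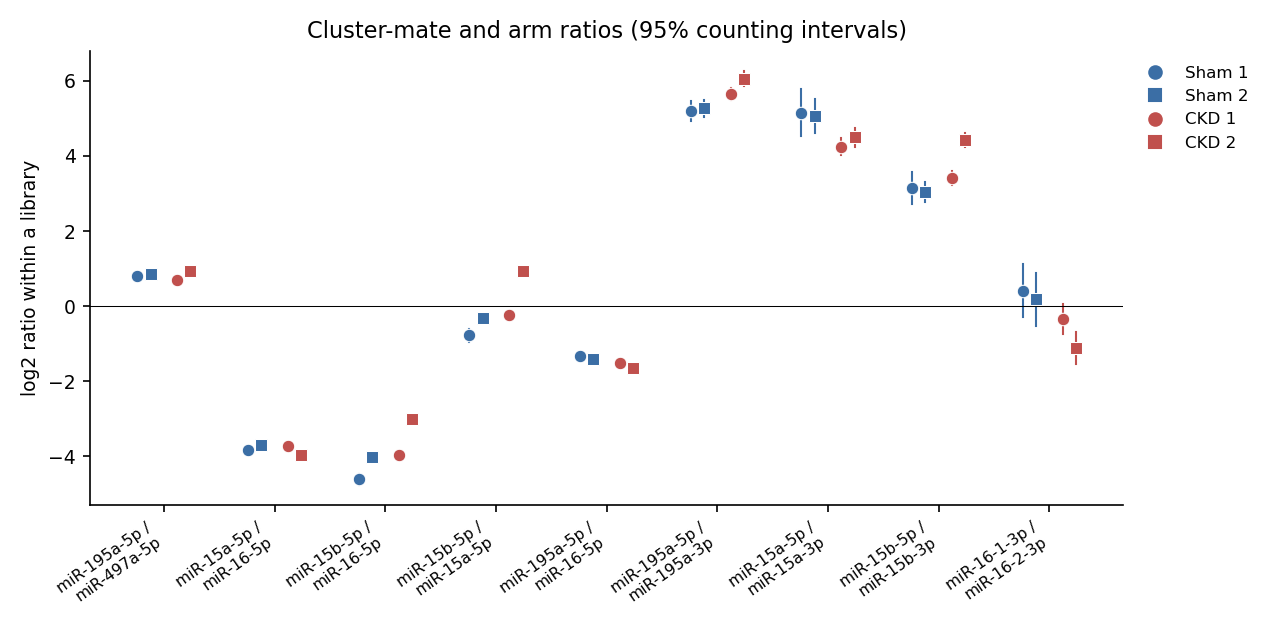
Log2 ratio of each pair within each library (circles for replicate 1, squares for replicate 2), with Wilson 95% counting intervals as bars. The ratio of miR-195a-5p to miR-497a-5p sits at 1.61 to 1.91 in all libraries on the linear scale, and CKD 2 stands apart in the 3 ratios with miR-15b-5p.

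Of the 5 opposite arms listed apart from miR-195a-3p, 4 had a mean of at least 1 CPM, and all 4 rose on the deposited scale by limma, where 82.9% of all entries were called higher. After TMM scaling 0 of 4 were called by limma, edgeR or DESeq2 (1 at an unadjusted p under 0.05 by limma), and the median was 0.26 beside -0.00083 for all tested entries. miR-15a-3p lay at 0.57 (SE 0.18, limma adjusted p = 0.14) and miR-16-2-3p at 0.45 (SE 0.21, limma adjusted p = 0.27). miR-15b-3p lay at 0.06 and miR-16-1-3p at -0.35 on the same scale, both without passing.

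Within each group, miRNAs of red cells were higher in replicate 2, as miR-15b-5p and entries outside the red cell list were. The 5 listed red cell miRNAs (miR-451a, miR-144-3p, miR-144-5p, and miR-486a-5p and miR-486b-5p, which hold equal values) had reads in all libraries. With the equal pair counted once, they summed to 219 and 841 CPM in Sham against 1035 and 4804 CPM in CKD. miR-451a, the defining red cell miRNA, had 130 and 574 CPM in Sham against 509.96 and 1425 CPM in CKD. miR-486a-5p had 76.9 and 212 CPM in Sham against 445 and 3266 CPM in CKD. Sham 2 stood above Sham 1, and CKD 2 above CKD 1, for these miRNAs and for miR-15b-5p. The excess was 1.25 in Sham against 1.06 in CKD on the log2(CPM + 1) scale for miR-15b-5p, where the medians of all entries were 0.44 and -0.14. For miR-16-5p the same differences were 0.69 and 0.10, and for miR-15a-5p 0.81 and -0.12. Entries outside the red cell list were higher in replicate 2 as well, some by more than miR-15b-5p. Among them were miR-92a-3p (1.64 and 2.71), miR-20b-5p (2.08 and 1.57) and miR-21a-5p (0.51 and 0.38). Others, such as miR-19b-3p (0.85 and -0.06), were higher in Sham 2 only. Between groups the order varied: miR-451a and miR-144-5p were lower in CKD 1 than in Sham 2. miR-144-3p, miR-486a-5p and miR-15b-5p (149 against 60.2 CPM) were higher there. The 4 leukocyte markers summed to 75.9 and 219 CPM in Sham against 409 and 446 CPM in CKD, and the 2 endothelial miRNAs to between 2899 and 3411 CPM in Sham and between 9767 and 9989 CPM in CKD. After TMM scaling limma and edgeR called none of these marker miRNAs (1, a leukocyte marker, at an unadjusted p under 0.05 by limma), and DESeq2 called miR-223-3p. The part of blood cells in the miR-15b-5p values was not tested.

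**Figure D5:**
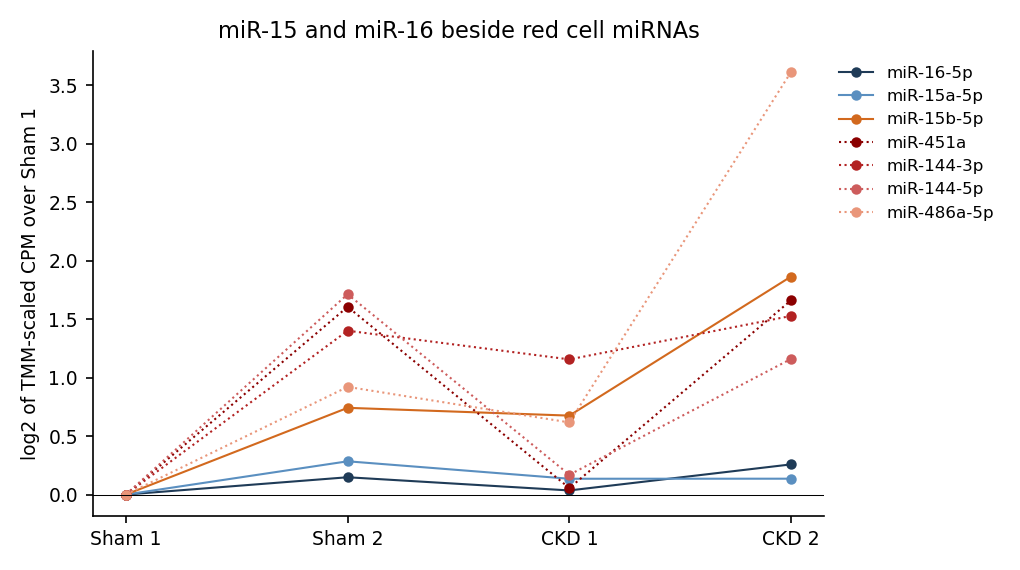
Log2 of TMM-scaled CPM over Sham 1 in each library for miR-16-5p, miR-15a-5p and miR-15b-5p (solid) and for red cell miRNAs (dotted), where lines only join the points of 1 miRNA. miR-15b-5p is higher in replicate 2 of each group, as the red cell miRNAs are, and as entries not drawn are, among them miR-92a-3p. miR-16-5p is higher there too, by less, and miR-15a-5p is higher in Sham 2 and nearly equal in the CKD libraries. Both stay close to 0.

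Among relatives with the same or nearly the same seed, the most abundant was miR-322-5p, above miR-195a-3p and below the other members in every library. Of 6 further miRNAs, 5 with the seed AGCAGCA and miR-503-5p with AGCAGCG, 3 were listed and 2 of these had a mean of at least 1 CPM. miR-322-5p, from the X chromosome, had 7.25 and 17.4 CPM in Sham against 45.9 and 31.6 CPM in CKD. It rose on the deposited scale by 1.67 (limma adjusted p = 0.004), and after TMM scaling its difference was 0.17 (SE 0.29, limma adjusted p = 0.73). miR-503-5p, from the same cluster, had 0.68 and 1.42 CPM in Sham against 4.22 and 2.94 CPM in CKD, with a TMM-scaled difference of 0.16 (SE 0.23, limma adjusted p = 0.67). After scaling neither was called by limma, edgeR or DESeq2, nor had an unadjusted p under 0.05 by limma. miR-195b, which matches miR-195a-5p over its first 16 bases, had no reads in 3 libraries, where 3 reads would be 0.171 to 0.178 CPM, and 1 read in CKD 2.

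On the deposited scale, where 82.9% of all tested entries were called higher, most miRNAs tied to the cell cycle were called higher too. Of 15 further miRNAs known as brakes on proliferation, mostly the let-7 family, all 15 were called higher there. After TMM scaling limma and edgeR called 0 of 15 (2 at an unadjusted p under 0.05 by limma), DESeq2 called 3, and the median was -0.20 with 11 below 0. The 2 farthest from 0 were miR-34c-5p, a p53 target, at 1.04 (SE 0.29, limma adjusted p = 0.11), and let-7i-5p at -0.78 (SE 0.15, limma adjusted p = 0.052). Of 14 miRNAs known to promote proliferation, 12 were called higher as deposited, a share near that of all entries. After TMM scaling their median was 0.30, 11 lay above 0 and 1 was called higher (1.88% of all tested entries were), miR-221-3p at 0.76 (SE 0.12, limma adjusted p = 0.039), named here after its values were seen. DESeq2 called 4 of the 14 and edgeR miR-221-3p. Over all 479 tested entries DESeq2 called 79 (31 higher and 48 lower) and edgeR 31. The 2 farthest from 0 were miR-92a-3p, from the miR-17 cluster, at 1.27 (SE 1.03) and miR-106a-5p at -0.95 (SE 0.51), each with libraries far apart within a group and neither past the threshold.

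The entries whose profile over the 4 libraries was most like that of a member came from different families. Likeness was the root mean square difference between centred log2(CPM + 1) profiles, over 247 annotated entries with a mean of at least 10 CPM, and it includes the shift that most entries share. Most like miR-16-5p were miR-25-3p (0.063) and miR-543-3p (0.071), and most like miR-15a-5p were miR-93-5p (0.039) and miR-421-3p (0.041). Most like miR-195a-5p were miR-30c-5p (0.046) and miR-27b-5p (0.051), and most like miR-497a-5p were miR-136-3p (0.035) and miR-185-5p (0.053). miR-195a-3p was nearest to miR-455-5p (0.036) and miR-3102-3p (0.044). For miR-15b-5p no entry came as close, with miR-182-5p at 0.206 and miR-338-3p at 0.255. The red cell miRNA miR-451a stood at 0.535 from miR-15b-5p, beside a median of 0.691 over the 247 entries. From the other members it stood farther than their medians, at 0.708 from miR-16-5p (median 0.244) and up to 0.995 from miR-195a-3p (median 0.438). Among the members themselves, miR-195a-5p and miR-497a-5p were each other's nearest (0.091), and the nearest member to miR-15b-5p was miR-16-5p, at 0.559.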

How the data were processed

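Small RNA of 2 Sham and 2 CKD aorta libraries was analysed. Per the labels' protocols, Trizol RNA of 4 samples was pooled and RNA of 18 to 30 nucleotides was selected by gel before adaptors were joined on. Bowtie and GRCm38 come per the submitters' processing notes, which leave the counting and the miRNA annotation unnamed. The deposited values sum to about 1000000 a library and were read as CPM. In 3 files, a deposited layout of another kind, names stand above values in 1 column and were paired by order. Every value of the 4 libraries (100%) gave a whole read number to within 0.005 CPM.

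limma 3.58.1 was run on log2(CPM + 1) for 479 entries with a mean of at least 1 CPM, with group as the only term and a mean-variance trend, and again after dividing the CPM by TMM factors (edgeR 4.0.16: 0.479 and 0.696 in Sham, 1.81 and 1.66 in CKD). With 2 residual degrees of freedom, limma borrows variance across entries. Differences on this scale understate the change of low entries. Ratios and shares were compared by exact permutation tests (scipy 1.17.1). Alternatives were other pseudocounts, filters and scalings, no trend, edgeR and DESeq2 1.42.0 on the recovered reads, the replicate number as a block, and leaving out each library. The fits were tested on simulated data.

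The members and lists were chosen with earlier results of these data known. Named were all members, every opposite arm and seed relative with a mean of at least 1 CPM, the 2 entries of each proliferation list farthest from 0 after TMM scaling, and the 2 entries nearest to each member. Sequences are from RefSeq (GRCm38.p6), in which all 6 members were matched by name, and hairpin positions and host genes from GENCODE (GRCm38). The striated muscle list had 4 of 7 markers tested and none called by limma after TMM scaling (median -0.46, 2 at an unadjusted p under 0.05), while DESeq2 called miR-133a-3p, and the hepatocyte miRNA miR-122-5p lay at 2.19 on that scale, not called.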

Additional observations from a re-analysis of the deposited data

How the results depend on the processing

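On the deposited scale 402 entries were past the threshold, 241 with only entries of at least 10 CPM tested (265 entries, so fewer to call), 28 with the library total taken without miR-143-3p, and 143 to 392 when a library was left out. That total left none of the 6 members called and turned miR-195a-3p to -0.44. After TMM scaling 37 entries were past the threshold (24.3% of them higher), 18 without a filter, 10 with the replicate block, 79 with DESeq2, and 5 to 13 when a library was left out. Without CKD 1 the calls were 8 higher and 0 lower, and without CKD 2 they were 5 higher and 0 lower, against 9 higher and 28 lower with all libraries. All 6 members stayed uncalled there except miR-195a-3p with entries of at least 10 CPM (-0.68, limma adjusted p = 0.045). Signs turned for values near 0: miR-15a-5p to 0.045 with median-of-ratios factors, to 0.036 with DESeq2 and to 0.14 without Sham 2 (-0.16 to 0.14 over libraries left out), and miR-16-5p to -0.022 with upper-quartile factors, to -0.012 without Sham 1 and to -0.039 without CKD 2 (-0.039 to 0.18 over libraries left out). The cause of these changes was not tested.

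On the deposited scale the call of miR-195a-3p was lost without a filter (limma adjusted p = 0.14), without the trend (0.056), with the replicate block (0.083) and when Sham 1, CKD 1 or CKD 2 was left out (0.15 to 0.45). miR-15b-5p missed the threshold without a filter (limma adjusted p = 0.054). The replicate block changed no other call of a member. The numbers are not known to pair libraries: deviations of libraries with the same number correlated across 479 entries at 0.10 as deposited and at 0.12 after TMM scaling. For ratios the block gives the unblocked difference by its construction. Summing reads over a group, or using other sets of family members for the shares, turned no direction. Leaving out 1 library turned the share of miR-497a-5p (-2.66 to 0.203 points, main -1.23) and of miR-15a-5p (-0.391 to 0.141), and the log2 ratios of miR-195a-5p to miR-497a-5p (-0.13 to 0.12), of miR-15a-5p to miR-16-5p (-0.19 to 0.032) and of the miR-497a arms (-0.75 to 1.45). Depth limits the 3p arms of miR-15a, miR-16 and miR-497a, with 3 to 163 reads a library.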
